A study of Mus musculus with 12 samples.

Results

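The K777A and N779A mutants of human DNMT3B were compared by the CpG methylation that each left in mouse embryonic stem (ES) cells. They were chosen as neighbouring residues of 1 DNA-binding loop that were profiled in the same experiment, and make up 4 of the 12 cell lines of the series, 2 lines per mutant. All lines came from TKO ES cells, in which Dnmt1, Dnmt3a and Dnmt3b are knocked out. They carry no DNA methyltransferase of their own but the human enzyme expressed from the pPyCAGIZ vector, maintained under Zeocin. The 2 lines of a mutant are labelled as biological replicates and were derived independently, so the spread between them is that between lines; the sources used here do not say which lines were clonal. Values of the WT DNMT3B lines labelled 1b and 2b, whose library names share a prefix with those of the mutants, are given only as a reference.

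DNMT3B is a de novo DNA methyltransferase, which adds a methyl group to the cytosine of CpG sites that carry none on either strand. Its target recognition domain reads the site through a short loop in the major groove: N779 contacts the guanine of the CpG and the base paired with the next position, and K777 lies beside that next position, called +1. Because a CpG is its own complement, each site has a +1 base on either strand, and the base before the CpG on 1 strand (−1) is the complement of the +1 base on the other. In TKO cells the maintenance enzyme Dnmt1 is missing, so methylation reflects continued de novo activity.

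Some classes of site have the same +1 base on both strands, among them ACGT, with T at +1, and CCGG, with G at +1. The 4 stretches printed here, on the plus strand of GRCm38, hold both kinds of site with 10 to 100 reads in all 4 lines. Capitals mark the ACGT and CCGG sites.
Window 1, chr8:20122759-20122814: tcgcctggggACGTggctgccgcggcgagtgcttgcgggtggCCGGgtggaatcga
Window 2, chr7:38401973-38402027: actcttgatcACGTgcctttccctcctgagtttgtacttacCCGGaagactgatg
Window 3, chr8:15027920-15028041: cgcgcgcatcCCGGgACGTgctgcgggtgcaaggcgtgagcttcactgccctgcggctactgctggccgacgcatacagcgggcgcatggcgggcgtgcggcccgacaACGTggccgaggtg
Window 4, chr12:20234139-20234211: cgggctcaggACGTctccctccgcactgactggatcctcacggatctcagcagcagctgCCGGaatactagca

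Window 4 lies within the transcribed locus Gm49692, outside its exons. Its CCGG site was methylated in 1 of 17 and 3 of 14 reads of the K777A lines, against 4 of 11 and 8 of 14 reads of the N779A lines. Its ACGT site was methylated in 7 of 26 and 11 of 24 reads of the K777A lines, and in 0 of 11 and 10 of 20 reads of the N779A lines. The mutants were thus apart at the CCGG site, with both K777A lines below both N779A lines, and overlapped at the ACGT site. Other sites of window 4, with G at +1 on 1 strand, went the other way. The ACGG/CCGT site had 9 of 26 and 7 of 24 methylated reads in K777A, against 0 of 11 and 3 of 20 in N779A. The first CCGC/GCGG site had 6 of 26 and 7 of 24 against 1 of 11 and 4 of 20, and at the second the lines overlapped. In window 2, which overlaps an exon of the pseudogene Gm6818, the CCGG site gave 2 of 12 and 0 of 14 methylated reads in K777A and 4 of 11 and 10 of 16 in N779A. The ACGT site of that window had 2 of 13, 0 of 14, 0 of 12 and 0 of 16 methylated reads. Windows 1 (in no annotated gene) and 3 (in an exon of Kbtbd11, outside its UTRs) are CpG-rich and were almost unmethylated in both mutants. Of the ACGT and CCGG sites in them, the second ACGT site of window 3 had 4 of 12 and 2 of 26 methylated reads in the K777A lines and 0 of 14 and 0 of 17 in the N779A lines. The CCGG site of window 1 had 3 of 50 methylated reads in K777A replicate 1, and all others had none. With 11 to 76 reads at these sites, a count of 0 allows a level of up to about 27.3% at 11 reads and 3.95% at 76 reads. These are approximate upper limits, taken as 3 divided by the number of reads. No molecular identifiers mark PCR copies here, so such limits cover counting error only, and the comparisons that follow average many sites per line.

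CpG sites of the autosomes were covered by 22926330 and 35245822 reads in the K777A lines and by 20206842 and 21173305 reads in the N779A lines. The K777A libraries were spread over more sites (8916128 and 10375135) than the N779A libraries (6651282 and 6414480), at a mean of 2.57 to 3.4 reads per covered site. Sites with 10 or more reads numbered 92532 to 382093 per line. CpG-dense sites, with 12 or more CpG sites in a 200-bp window, made up 8.14% to 11.5% of covered sites without separating the mutants. Lines of 1 mutant had identical counts at 9.68% (K777A) and 7.68% (N779A) of the sites with 10 or more reads in both, and pairs of lines from different mutants were not compared in this way. The files hold methylation and not RNA, so neither the ES cell identity nor the amount of the expressed enzyme could be checked in them.

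N779A cells carried more CpG methylation than K777A cells at every CpG density. The mean over covered autosomal sites was 6.59% and 7.68% in the K777A lines and 11.3% and 12.5% in the N779A lines, that is 7.14% ± 0.775 against 11.9% ± 0.882 (SD, n = 2). Both K777A lines lay below both N779A lines, and the difference (K777A minus N779A) was −4.76 percentage points, several times the SD of either mutant. A two-sided exact permutation test gave p = 0.33. This is the lowest p the design can reach with 2 lines per mutant, so no single value of this kind can pass a threshold of 0.05. The WT lines stood at 13.8% and 12.7%, just above N779A. A difference in the activity of the mutant enzymes and a difference in their amount cannot be told apart in these data.

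Where CpG sites were sparse (1 to 2 in 200 bp), the K777A lines were methylated to 7.48% and 8.44%, and the N779A lines to 12.1% and 14.0%. In CpG-dense stretches, which include most CpG island promoters, it was 1.35% and 1.24% in K777A and 2.33% and 2.33% in N779A. The ratio of the means (N779A over K777A) lay between 1.64 and 1.80 in the 5 density classes, and in none of them did the lines overlap. Levels in both mutants were thus lowest where CpG sites were densest, while the ratio between them changed little.

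**Figure D1:**
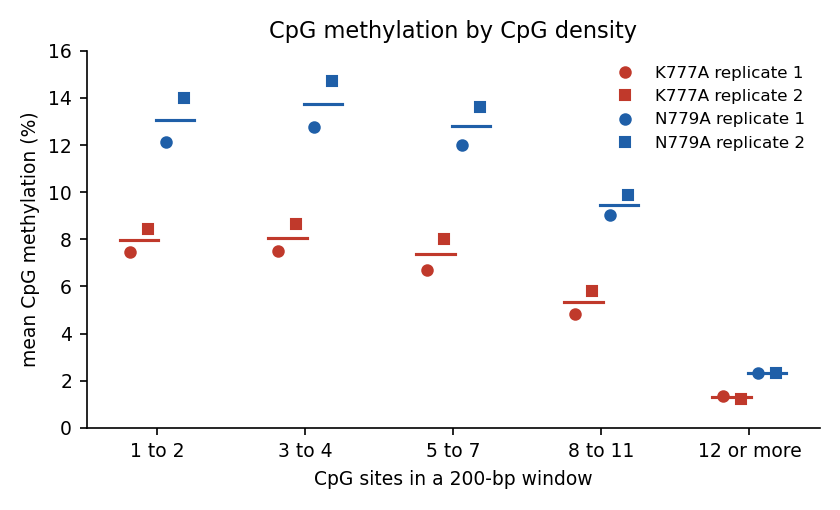
Mean CpG methylation (%, vertical axis) of each line by the number of CpG sites in a 200-bp window (horizontal axis); points are lines and bars the means of 2 lines. N779A lies above K777A in all 5 classes, with a ratio of the means between 1.64 and 1.80.

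The mutants differed most by the base at +1. The share of a base was its mean methylation divided by the sum over the 4 bases, each site being read on both strands. In K777A the order was T, A, C, G, with shares of 37.4% and 37.9% for T and of 14.2% and 13.7% for G in the 2 lines. In N779A the order was G, T, A, C, with 30.6% and 30.9% for G and 28.6% and 28.7% for T. The T share minus the G share was 23.1 and 24.1 percentage points in the K777A lines and −2.02 and −2.21 in the N779A lines, a difference of 25.8 points with a spread of 0.707 and 0.133 (SD, n = 2). The WT lines had 30.1% and 30.3% for G and 23.8% for T in both, so that N779A was close to WT in the share of G, with a higher share of T and, at 24.3% in both lines against 31.0% and 30.7%, a lower share of A.

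In terms of levels, sites with G at +1 were methylated to 3.74% and 4.18% in K777A and to 13.5% and 15.1% in N779A, a 3.62-fold difference. With T at +1 the levels were 9.82% and 11.5% in K777A and 12.6% and 14.0% in N779A, a 1.25-fold difference. For C at +1 the ratio was 1.2 and for A it was 1.53. The lines did not overlap for any of the 4 bases, but these averages mix sites with and without G at +1 on the other strand, which the classes below keep apart.

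The T-over-G order of K777A held at every CpG density. At 1 to 2 CpG sites per 200 bp, T minus G was 20.7 and 22.0 points in the K777A lines, against −4.82 and −6.03 in those of N779A. In CpG-dense stretches the K777A lines stood further apart, at 14.6 and 22.1 points, and the N779A lines had 2.61 and 2.16, a weak order of T over G.

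Counting the strands with G at +1 set out the difference in levels. On sites with G at +1 on neither strand, methylation was 8.82% and 10.4% in K777A and 9.77% and 10.8% in N779A, so that the lines overlapped. With G on 1 strand it was 4.54% and 5.10% against 12.3% and 13.1%, and with G on both it was 1.84% and 1.86% against 17% and 19%. The mean over the pooled classes thus fell with the number of strands with G in K777A and rose in N779A. In the WT lines it also rose, from 12.1% and 11.1% without G to 14.4% and 13.2% with 1 and 20.2% and 18.7% with 2. Single classes did not all follow. In N779A, CCGC/GCGG, with G on 1 strand, had 7.19% and 7.38%, below ACGT, without G, at 14.1% and 15.7%.

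**Figure D2:**
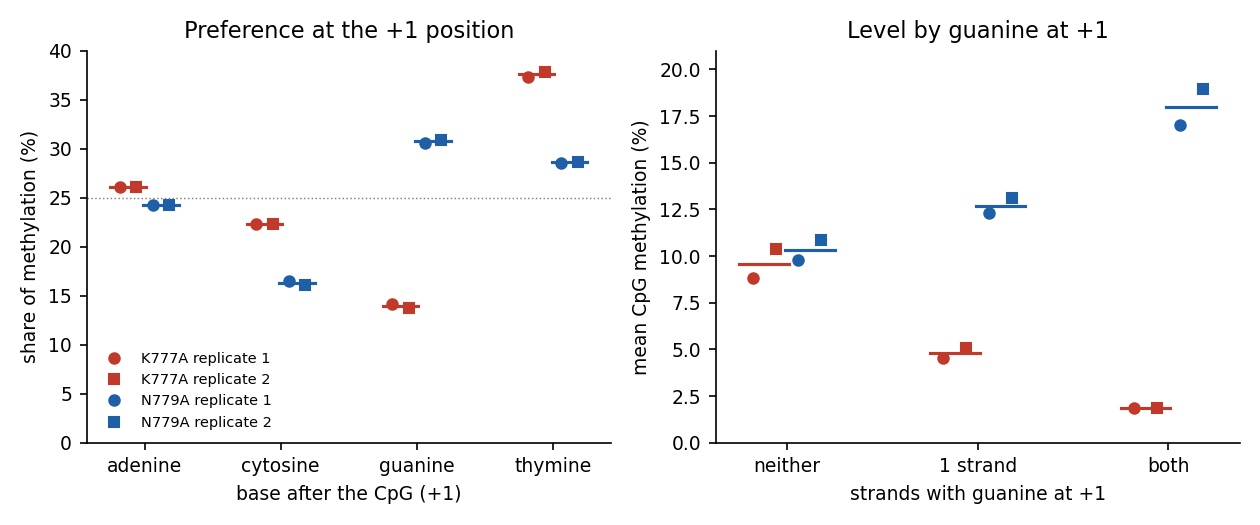
Left, share of methylation (%) by the base at +1 in each line; the dotted line marks equal shares. Right, mean CpG methylation (%) by the number of strands with guanine at +1. Points are lines and bars the means of 2 lines. Thymine leads in K777A (37.4% and 37.9%) and guanine in N779A (30.6% and 30.9%), and the mutants overlap only where neither strand has guanine.

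Away from +1, K777A also read position +2 more strongly. The SD of the 4 base shares, a measure of how strongly a position is read, was 4.85 and 4.8 points at +2 in K777A and 1.93 and 2.20 in N779A; in WT it was 1.80 and 1.86. The base that stood out was A at +2, with a share of 31.9% in both K777A lines and 27.7% and 28.0% in the N779A lines. At +1 the SD was 9.62 and 10.0 against 6.23 and 6.51. At +3 the mutants overlapped in the strength of readout (2.66 and 2.58 against 2.46 and 2.62), although G at +3 had a share of 26.3% and 26.4% in K777A and 24.0% and 23.8% in N779A. Since the strands were collapsed in the counts, −1, −2 and −3 give the mirror image of these values, and a preference for T after the CpG cannot be told apart from one for A before it.

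Of the 10 strand-symmetric NCGN classes, 5 separated the mutants and in 5 the lines of the mutants overlapped. CCGG, the class with G at +1 on both strands, was methylated to 1.84% and 1.86% in K777A and to 17% and 19% in N779A, a 9.72-fold difference. WT lines had 20.2% and 18.7% there. MspI, used to cut the DNA, cleaves at CCGG, and the authors clipped the first bases of the reads. Leaving out all CCGG sites gave a difference of 18.6 points in T minus G and of −3.74 points in the overall level (K777A minus N779A).

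The classes with G at +1 on 1 strand followed. CCGA/TCGG had 3.55% and 3.93% in K777A and 14.0% and 15.2% in N779A. ACGG/CCGT had 6.42% and 7.21% against 15.2% and 16.5%. CCGC/GCGG had 3.5% and 3.92% against 7.19% and 7.38%. In each of these, both K777A lines lay below both N779A lines.

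TCGA, with A at +1 on both strands, was the remaining class in which the lines did not overlap: 7.62% and 8.91% in K777A, 11.4% and 12.7% in N779A. WT lines were at 22.2% and 20.2% in this class, so that both mutants lay well below WT.

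In the remaining classes the lines of the mutants overlapped when all covered sites were used. ACGT had 13.2% and 15.8% in K777A and 14.1% and 15.7% in N779A, and was the class with the highest level in K777A; the WT lines had 12% and 11%. For ACGA/TCGT the levels were 9.84% and 11.5% against 10.2% and 11.5%, and for ACGC/GCGT 8.91% and 10.7% against 10.3% and 11.5%. GCGA/TCGC had 6.40% and 7.39% against 6.16% and 6.89%, and GCGC 4.87% and 5.37% against 5.22% and 5.69%. The sign of the small difference in ACGT, in ACGA/TCGT and likewise in GCGA/TCGC changed with the line left out. For GCGC the overlap depended on the sites used: K777A minus N779A was −0.34 points over all covered sites, and both K777A lines lay below both N779A lines with all reads weighed the same (−0.56 points), on the sites covered in all lines (−0.67), and at sites with 5 or more (−0.86) or 10 or more reads (−1.43). For ACGC/GCGT the mutants separated at sites with 10 or more reads (−2.44 points).

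At up to 11 CpG sites per 200 bp, the classes divided as over all covered sites. In CpG-dense stretches further classes separated the mutants, with both K777A lines lower. ACGC/GCGT had 1.68% and 1.87% in K777A against 2.19% and 2.06% in N779A there, and GCGA/TCGC had 1.44% and 1.43% against 1.75% and 1.97%. For GCGC the levels were 1.78% and 1.18% against 2.11% and 2.38%. The CCGG ratio (N779A over K777A) was 10.5 at 1 to 2 CpG sites per 200 bp and 4.18 in CpG-dense stretches, where levels were 0.959% and 0.713% in K777A. The ACGT ratio lay between 0.97 and 1.04 in all 5 classes of density.

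Single sites with 10 or more reads showed how these means were made up. Among CCGG sites outside CpG-dense stretches, 84.5% and 87.6% had no methylated read in the K777A lines, against 53.1% and 42.3% in the N779A lines. CCGG sites methylated in at least 50% of their reads made up 0.101% and 0.294% of those in the K777A lines, but 15.5% and 15.6% of those in the N779A lines. At ACGT sites outside CpG-dense stretches, 40.2% and 38.6% had no methylated read in K777A and 58.4% and 47.2% in N779A. Those methylated in at least 50% of reads were 4.36% and 7.48% in K777A and 11.9% and 10.8% in N779A, while the means overlapped (12.7% and 16% against 15.0% and 16.3%). At ACGT sites a like mean was thus spread over more sites, each at a lower level, in K777A than in N779A; the part of PCR copies in this was not tested. Site by site, Pearson's r over all sites with 10 or more reads, dense stretches included, was 0.402 between the K777A lines (29827 sites), 0.345 between the N779A lines (12427 sites) and 0.217 to 0.261 between the mutants. Outside CpG-dense stretches it was 0.34 between the K777A lines, 0.264 between the N779A lines and 0.123 to 0.171 between the mutants.

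Only 129 CCGG and 94 ACGT sites outside chromosome 18 had 10 to 100 reads in all 4 lines, and they allow a comparison on the same sites. CCGG sites averaged 2.06% and 1.78% in the K777A lines and 12.7% and 14.1% in the N779A lines, with both K777A lines below both N779A lines at 52 sites and above at 0. ACGT sites averaged 9.44% and 12.2% in the K777A lines and 8.60% and 11.1% in the N779A lines, so that the means overlapped. Both K777A lines were below at 5 of the 94 ACGT sites and above at 17. At most sites of either class the lines did not separate. The share of sites that would separate without any difference between the mutants was not calculated.

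Extending the reading frame to 3 bases on either side gave 2080 NNNCGNNN contexts, each merged with its reverse complement. The log2 odds of a line were taken relative to its median context, so a change is relative to the typical context of that line. limma called 1739 of the 2080 contexts (83.6%) at an adjusted p under 0.05, with 1034 (49.7%) higher and 705 (33.9%) lower in K777A. Without centring it called 1451 (69.8%), of which 211 (10.1%) were higher and 1240 (59.6%) lower in K777A, and the median change was then −0.60 (log2 odds). Of the 1034 contexts called higher with centring, 450 also had a higher mean level in K777A, and of the 705 called lower, 0 did.

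All 136 CCGG contexts fell in K777A, with a median log2 change of −2.80 and none above −1.23. Of the 256 contexts of CCGA/TCGG, 242 fell and 2 rose (median −1.42), and of those of ACGG/CCGT, 194 fell and 23 rose (median −0.64). CCGC/GCGG had 99 lower and 52 higher. Without centring, 255 contexts of CCGA/TCGG were called lower in K777A, as were 247 of ACGG/CCGT and 220 of CCGC/GCGG, and 0 were called higher. The mean level was lower in K777A in 757 of the 768 contexts of these 3 classes. The median level of CCGC/GCGG was 3.18% in K777A against 6.76% in N779A. GCGA/TCGC rose in 245 of 256 contexts (median 0.88) and ACGA/TCGT in 234 (median 0.79). ACGT rose in 113 of 136 contexts, GCGC in 93 of 136 and ACGC/GCGT in 193 of 256. TCGA was mixed, with 79 higher and 31 lower. These changes are relative to the median context of each line. As levels, the median context of GCGA/TCGC was at 6.44% in K777A and 5.93% in N779A, a higher level in K777A. The median context of ACGA/TCGT stood at 10.5% in K777A against 10.8%, and the corresponding values of ACGC/GCGT were 9.6% against 11%. For ACGT it was 14% against 16.8%, for GCGC 4.32% against 4.69% and for TCGA 8.22% against 11%. Without centring, GCGA/TCGC had 76 contexts higher and 39 lower in K777A, ACGA/TCGT 58 and 61, and ACGC/GCGT 24 and 108. There were 22 higher and 52 lower for ACGT, 15 and 45 for GCGC, and 16 and 77 for TCGA. Over all contexts the median change was 0.24.

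**Figure D3:**
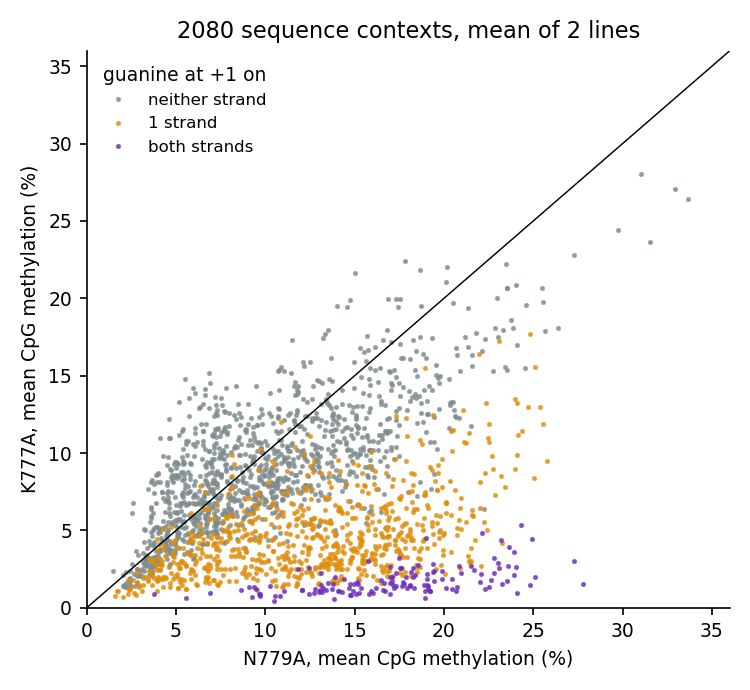
Mean CpG methylation (%) of each of 2080 sequence contexts in N779A (horizontal axis) and K777A (vertical axis), averaged over 2 lines; the diagonal marks equal levels. Contexts with guanine at +1 on both strands lie along the bottom (median 1.5% in K777A, 17.3% in N779A), those with guanine on 1 strand lie mostly below the diagonal (757 of 768), and those with none lie on both sides of it (median 8.68% and 9.24%).

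Among the contexts with the strongest relative rise in K777A, ccACGTgg stood first. Its level was 13.2% and 16.3% in the K777A lines and 5.04% and 6.0% in the N779A lines (log2 change 2.41 ± 0.0800 SE, limma adjusted p = 9.6e-07), and it was 4.10% and 4.42% in WT. It was followed by acACGTgt, at 11.4% and 12.9% against 4.24% and 4.94%, acACGAcg, at 10.3% and 11.6% against 3.43% and 4.82%, and acACGTgg, at 12.2% and 14.4% against 4.63% and 5.72%. Next came ggTCGCta, at 5.98% and 7.57% against 2.07% and 3.15%, and cgTCGAca, at 10.1% and 11.9% against 2.96% and 6.27%. In these 6 contexts the levels themselves, and not just the centred values, were higher in both K777A lines. The 3 ACGT members among them hold the hexamer cACGTg. WT levels were near those of N779A for the ACGT members (4.31% to 5.07% for acACGTgt and acACGTgg) but well above both mutants for cgTCGAca, at 19.3% and 20.9%. For acACGAcg (7.81% and 8.67%) and ggTCGCta (5.26% and 4.90%) they lay between the mutants and nearer to K777A.

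At the other end, the 6 contexts with the largest fall were all CCGG. gaCCGGtc was methylated to 0.785% and 0.453% in K777A and to 17.7% and 20.2% in N779A (log2 change −4.35 ± 0.299 SE, limma adjusted p = 6.0e-06). taCCGGta had 0.996% and 0.915% against 21.5% and 26.7%. tcCCGGga, methylated to 26.3% and 29.3% in N779A, had 1.59% and 1.53% in K777A. For aaCCGGtc, aaCCGGtt and taCCGGca the K777A levels lay between 0.370% and 1.40%, and the N779A levels between 9.72% and 23.4%.

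The profile over contexts was nearly the same in lines of 1 mutant and little related between mutants. Pearson's r across the 2080 contexts (log2 odds) was 0.986 between the K777A lines and 0.979 between the N779A lines, but 0.226 to 0.254 between K777A and N779A lines; contexts share libraries and neighbouring bases, so no p is given. The pair of bases next to the CpG explained 67.3% and 68.5% of the variance over contexts in K777A, 55.4% and 56.2% in N779A, and 76.7% of that of the difference between them. The pair at distance 2 explained 15.2% and 14.7% in K777A, 9.36% and 10.5% in N779A, and 3.70% of the difference. K777A also spread its methylation more unevenly: the 95th over the 5th percentile of context levels was 9.28 and 10.8 in K777A and 5.70 and 5.87 in N779A.

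Within a class whose average did not differ, the next bases out still separated the mutants. Each of the 4 palindromic classes, those with the same +1 base on both strands, holds 10 hexamers once complements are merged. Of the ACGT hexamers, 3 were higher in both K777A lines, 6 were lower and 1 overlapped. cACGTg had 12.4% and 14.9% in K777A and 5.58% and 6.44% in N779A, and cACGTa had 17.9% and 20.5% against 14.5% and 16.2%. In the other direction, gACGTc had 10.2% and 13.0% against 16.6% and 18.2%, and tACGTa, the most methylated ACGT hexamer of both mutants, had 21.1% and 24.6% against 26.0% and 28.3%. The average of the class thus hid differences of opposite sign. From lowest to highest, ACGT hexamers spanned a ratio of 2.09 in K777A (11% to 22.9%), 4.51 in N779A (6.01% to 27.1%) and 3.94 in WT (5.47% to 21.5%).

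TCGA hexamers behaved alike in WT, between 18.7% and 23.4%, and unlike in both mutants. aTCGAt was at 7.48% and 8.77% in K777A and 15.8% and 18.1% in N779A. gTCGAc, by contrast, was at 9.04% and 10.5% in K777A and 5.71% and 6.66% in N779A. Both K777A lines were lower in 7 of the 10 TCGA hexamers and higher in 2. In the GCGC class 6 hexamers were lower and 1 higher, the latter being tGCGCa with 8.64% and 10.5% in K777A and 5.72% and 6.01% in N779A.

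All 10 CCGG hexamers were lower in both K777A lines. The highest of them in K777A was tCCGGa, at 3.88% and 4.21% against 19.2% and 21.7% in N779A, and the lowest was aCCGGt, at 0.956% and 0.853% against 14.1% and 17.3%. The lowest in N779A was gCCGGc, at 10.6% and 11.7%, while WT had 19.7% and 17.7% there.

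Regions pool sites of many contexts, so differences between contexts average out in them, and the ratio between the mutants varied less. Promoters (1000 bp before to 500 bp after the start of protein-coding genes) were methylated to 1.40% and 1.22% in K777A and 2.19% and 2.24% in N779A. Exons had 6.46% and 7.27% against 11.3% and 12.5%, introns 7.64% and 8.74% against 12.6% and 14.3%, and intergenic sites 6.56% and 7.74% against 11.4% and 12.9%. The ratio of the means stayed between 1.65 and 1.73 in these 4 annotations. Within single density classes it reached from 1.62 (introns, 1 to 2 CpG sites per 200 bp) to 2.02 (intergenic sites in CpG-dense stretches).

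limma, with each line centred on its median, called 0 of 10594 gene bodies (0%), with 620 at an unadjusted p under 0.05, and 0 of 11733 promoters (0%), with 525. Without centring 4881 gene bodies (46.1%) were called, all lower in K777A, and 0 promoters, with 1158 promoters at an unadjusted p under 0.05. On simulated data of this comparison limma called 0 of 200 gene bodies and 0 of 200 promoters with a planted log2 change of 1, against 196 of 200 contexts and 200 of 200 tiles of 1 Mb. A change of that size in a limited number of genes was thus not detectable with these lines and this fit, and the parts played by depth, the number of lines and the adjustment over all genes were not tested.

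In tiles of 1 Mb with 1000 or more covered sites per line, which were added after seeing the data, the median level was 6.58% and 7.67% in K777A and 11.2% and 12.5% in N779A. Both K777A lines lay below both N779A lines in 2321 of 2321 tiles, and without centring limma called 2320 of them (100%). With centring 4 tiles (0.172%) were called, 2 higher (0.0862%) and 2 lower (0.0862%) in K777A. The tile on chromosome 4 at 145000001 to 146000000 (GRCm38) had 7.06% and 8.65% in K777A and 15.3% and 16.9% in N779A (log2 change −0.37 ± 0.0815 SE, adjusted p = 0.027, limma). The tile on chromosome 3 at 141000001 to 142000000 had 6.87% and 7.71% against 8.56% and 9.66% (log2 change 0.46). The others lay on chromosome 9 at 38000001 to 39000000 (0.36) and on chromosome 13 at 50000001 to 51000000 (−0.37). These calls depended on the lines used. Without K777A replicate 1 limma called 3 tiles, of which 1 was among the 4, and without K777A replicate 2 it called 8, of which 2 were among them. Without N779A replicate 2 there were 2 calls, 1 of them shared, and there was none without N779A replicate 1 or with the replicate number as a block. The SD of the centred log2 change was 1.21 over contexts, 0.39 over gene bodies and 0.11 over tiles. The median SE of a change was 0.0913, 0.276 and 0.0921, so that the SDs of gene bodies and tiles were not far above it.

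**Figure D4:**
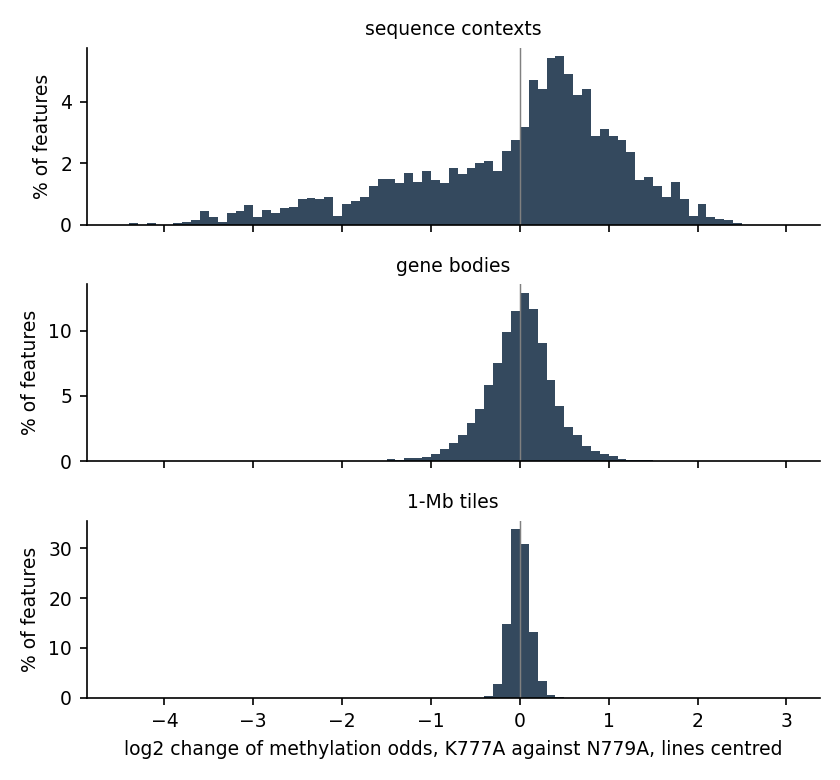
Distribution of the centred log2 change of methylation odds (K777A against N779A, horizontal axis) over 2080 sequence contexts, 10594 gene bodies and 2321 tiles of 1 Mb, as a percentage of features per bin. Contexts reach from −4.35 to 2.41, whereas the 5th and 95th percentiles of tiles are −0.17 and 0.19.

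The ratio of N779A to K777A was higher in gene bodies with more G at +1. The share was taken over all CpG sites of the body, covered or not, with both strands read. In the 2651 genes with the lowest share of G at +1 (up to 24.6%), levels were 9.04% and 9.71% in K777A and 13.5% and 15.8% in N779A, a ratio of 1.56. In the 2649 genes with the highest share (29.6% and more), they were 6.04% and 6.55% against 11% and 12.7%, a ratio of 1.89. The groups of genes between had ratios of 1.64 and 1.72. In percentage points the order was not the same: from the lowest to the highest share of G, K777A minus N779A was −5.26, −5.76, −5.89 and −5.6.

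Levels predicted from context and density alone were then set beside those observed. The mean of each line was taken per NNNCGNNN context and density class on the odd-numbered autosomes, and applied to the sites of the even-numbered ones. For the difference between the mutants, Pearson's r of predicted and observed values was 0.408 over 4774 gene bodies (Spearman's rho 0.395) and 0.542 over 1112 tiles (rho 0.556). For the level within 1 line it was 0.517 to 0.571 over gene bodies and 0.037 to 0.166 over tiles. Regions share base composition and libraries, and no p was calculated. Observed tile differences covered −6.03 to −3.15 percentage points (5th to 95th percentile) and predicted ones −5.19 to −4.30.

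**Figure D5:**
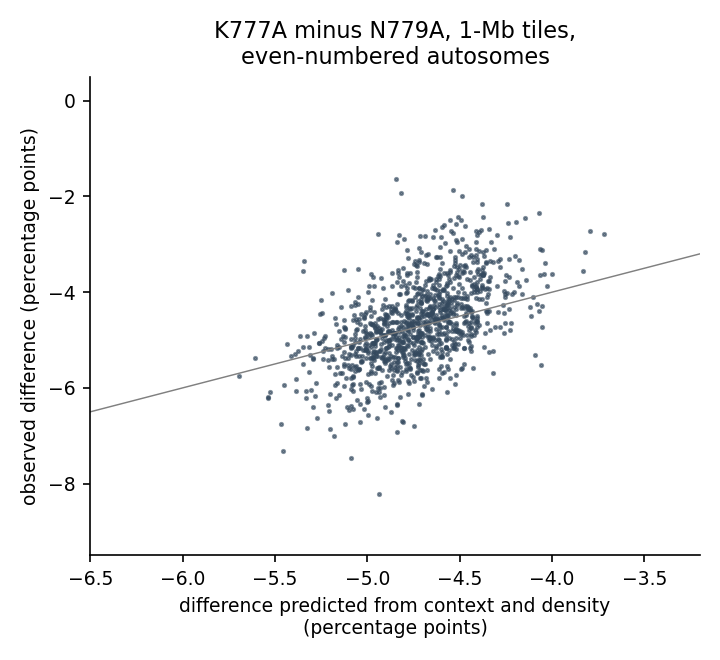
Observed difference in CpG methylation (K777A minus N779A, percentage points, vertical axis) of 1112 tiles of 1 Mb on even-numbered autosomes against the difference predicted from sequence context and CpG density learnt on odd-numbered autosomes (horizontal axis); the line marks equal values. Tiles with a larger predicted difference tend to have a larger observed one (Pearson's r 0.542), and all 1112 lie below 0.

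In each named gene group, both K777A lines had a lower mean than both N779A lines. The ratio of the means (N779A over K777A) was 1.55 to 1.63 for gene bodies and 2.24 for germline promoters. Whether a group differed from all genes was not tested. Enough sites were covered in 15 of 30 housekeeping genes, 13 of 16 machinery genes and 20 of 20 long neuronal genes. The same held for 8 of 23 pluripotency genes and 18 of 24 germline promoters. In none of the groups did limma call a member. Counts of members at an unadjusted p under 0.05 were 2 of 15 tested housekeeping genes, 1 of 13 genes of the methylation machinery, 0 of 20 long neuronal genes, 0 of 8 pluripotency genes and 1 of 18 germline promoters, beside 5.85% of all gene bodies and 4.47% of all promoters. Bodies of housekeeping genes, which are transcribed in ES cells, had mean levels of 10.0% and 11% in K777A and 15.8% and 16.8% in N779A, both above the means of 8.21% and 13.8% over all gene bodies. Polr2a, the largest subunit of RNA polymerase II, had 13.4% and 11.3% against 25.5% and 27.5%. Ldha, a lactate dehydrogenase subunit, had 6.34% and 9.09% against 3.91% and 7.01%, so that its lines overlapped. Long neuronal genes were lower in both mutants, at 6.09% and 7.35% in K777A and 10.2% and 11.7% in N779A, and pluripotency genes lower still, at 5.11% and 5.23% against 7.33% and 9.45%.

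Promoters of germline genes, which are usually kept silent by methylation outside the germ line, were at 2.20% and 3.84% in K777A and 6.99% and 6.53% in N779A, above the means over all promoters of 1.14% and 2.00%. The promoter of Sycp1, a protein of the synaptonemal complex, had 1.00% and 0% in the K777A lines, against 8.33% and 8.27% in N779A, with as few as 12 covered sites per line. Others of the list went the opposite way. The promoter of Smc1b, a meiotic cohesin subunit, had 3.35% and 2.73% in the K777A lines and 0% and 2.06% in those of N779A, and that of Stk31 had 1.5% and 4.17% against 0% and 1.52%, where the lines overlapped. After adjustment limma called none of these promoters. Of the genes knocked out in these cells, Dnmt1 had 8.42% and 9.31% in its body in K777A and 12.6% and 18.6% in N779A, and Dnmt3a 6.86% and 6.24% against 12.8% and 11.1%. Dnmt3b had 6.45% and 8.35% against 9.99% and 21%; these are the mouse loci and not the human enzyme that was expressed.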

How the data were processed

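eRRBS sequences bisulfite-treated DNA cut with MspI, BfaI and MseI. Per the labels and methods, the authors clipped and trimmed the read pairs (Cutadapt, listed as 1.12 in the submitters' processing notes), aligned them to mm10 with Bismark 0.18.1 and Bowtie 1.2, counted overlapping bases once, removed pairs in which 3 or more non-CpG cytosines stayed unconverted, and collapsed the strands. The deposited values are raw counts of methylated and of all reads per line at 21867550 CpG sites, every one a CG in GRCm38; 20383623 autosomal ones were used. They are not normalized or pooled.

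Methylation was calculated as methylated over all reads per covered site (minimum 1 read), and sites weighed the same. Contexts (20 or more sites per line), gene bodies (from 2000 bp after the start, 50 sites), promoters (10 sites) and 1-Mb tiles (1000 sites) were tested with limma 3.58.1 in R 4.3.3 (trend, Benjamini-Hochberg, threshold 0.05) on log2 odds, offset by 0.5 over the site number. Other calculations used Python 3.11.15 with numpy 2.4.6, and genes came from GENCODE. The code was tested on simulated data: of 200 contexts with a log2 change of 1, 196 were called, with 19 false calls.

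Contexts named are the 6 that changed most either way, out of those called, without overlap and with 100 or more sites per line; genes described are among those with the largest change per list. Windows (at most 150 bp, outside UTRs and 100 kb apart) had the most reads in their least covered line. The mutants, lists and measures were chosen with earlier results of these data known. Hexamers, single-site shares and tiles were added after seeing the data. Alternatives were other read minima, scalings, weightings and models, common sites, no CCGG sites, a replicate block and leaving out lines. Non-CpG sites were not analysed here.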

Additional observations from a re-analysis of the deposited data

How the results depend on the processing

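The overall level, its values by CpG density, the +1 preference and the CCGG class kept their direction under all alternatives run. The difference of the mutants in T minus G was 48.7 points where both strands of a site share their +1 base, against 25.8, and 18.6 to 26.3 otherwise. Contexts called numbered 539 of 1452 testable at 10 or more reads per site, of which 531 were among the 1739, and 3232 of the contexts when contexts were read on the forward strand only, which tests both strands' contexts apart. A quasi-binomial regression called 1297. Of 202 alternatives for the 12 named contexts, 201 kept the call and its direction, and cgTCGAca lost it in the quasi-binomial regression (adjusted p = 0.062). Without centring, which keeps the general gap between the mutants, 4881 gene bodies and 2320 tiles were called. The gene body test with 10 or more reads per site had too few genes to run.

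Some classes with overlapping lines changed sign. The difference of ACGT (K777A minus N779A, −0.37 percentage points) was 0.895 without K777A replicate 1, 0.438 without N779A replicate 2, −1.63 without K777A replicate 2 and −2.09 at 10 or more reads per site; that of ACGA/TCGT (−0.21) was 0.607, 0.452, −1.02 and −1.18. That of GCGA/TCGC was −0.733 at 10 and −0.0181 at 5 or more reads per site, and −0.122 to 0.861 with single lines left out (−0.122 without K777A replicate 2). The cause was not tested beyond the line left out. With single lines left out, 1616 to 1662 contexts, 0 to 8 tiles, 0 gene bodies and 0 promoters were called. A lone line is then assumed to vary like the other group.

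The replicate numbers only name lines: deviations of lines with the same number correlated at 0.036 over contexts and 0.0033 over tiles. With the number as a replicate block, 1743 contexts, 0 tiles, 0 gene bodies and 0 promoters were called, and mean differences are the same by construction (−4.76 points for the level, 25.8 for T minus G).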
